A study of Mus musculus with 3 samples.

Results

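The genes described here make up the antioxidant system that the transcription factor NRF2 is known to govern in large part, together with neighbouring enzymes of peroxide, superoxide and glutathione chemistry. The list held 42 genes. Of these, 38 had a probe set with a single gene symbol in the array annotation, out of 18193 genes represented in that way. Prdx1 was left out because its probe sets carried several symbols, and Prdx5, Prdx6 and G6pdx were not in the annotation used and were not analysed here. Each gene was read from its probe set with the highest mean over the arrays. Values below 3.54 on the log2 scale, the 50th percentile of all probe sets, were treated as not measured. By that floor 35 of the 38 genes were measured on all 3 arrays, while Gsta3, Mgst1 and Gpx3 were below it on every array.

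RNA came from MC3T3-E1 cells, an established mouse preosteoblast line from calvaria of C57BL/6 background, grown for 3 days at 37 °C and hybridised to Affymetrix GeneChip mouse arrays. The DMSO culture had osteogenic medium with 0.6% dimethyl sulfoxide (DMSO), a solvent. The osteogenic culture had the same medium without DMSO. This is MEM α with 10% fetal bovine serum to which 10 mM beta-glycerophosphate and ascorbic acid 2-phosphate at 150 µM were added. The normal culture had only MEM α with 10% fetal bovine serum. All cultures shared that base medium and serum, and per the labels DMSO raised the mineral that alizarin red S stains. There was 1 array per culture, so no value has a replicate and no test was possible, and precision is limited by that number.

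NRF2, encoded by Nfe2l2, is a factor whose protein is held at a low level by KEAP1, an adaptor that delivers it to a ubiquitin ligase. Oxidants and electrophiles modify cysteines of KEAP1, NRF2 then escapes degradation, and with small MAF proteins it binds antioxidant response elements in front of its target genes. The targets make glutathione, couple it to toxic compounds, reduce thioredoxin and peroxiredoxins and supply NADPH. Because the control acts largely on the protein, the mRNA of Nfe2l2 says little about its activity, and target genes are the usual readout. An osteoblast meets oxidants from respiration and from disulfide formation in its secreted proteins, and ascorbate, which the osteogenic medium supplied in a stable form, is itself an antioxidant.

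The antioxidant response element was looked up in the promoter windows that RefSeq gives for mouse build GRCm38.p6, each reaching from 250 bases before to 50 bases after an annotated start. Its core was searched as TGACNNNGC on both strands, letters that partly overlap the AP-1 site TGACTCA, which was not searched. Of the 34 listed genes that had a window, 13 held at least 1 match, which is 38.2%, against 14.0% of all 27025 genes with a window. Among genes above the floor the share was 9 of 28 listed genes (32.1%), against 16.5% of 9088 genes. Counted by windows, 14 of 43 (32.6%) held a match, against 12.4% of the 32851 windows searched. Genes of the list can have several windows that overlap. A match is only a run of letters, and its absence says nothing of sites elsewhere. No window was given for 8 listed genes, among them Hmox1, Gclc, Gsr and Sod3. The window of Nqo1 and the other windows of Txnrd1 held no match and are not shown. The windows below belong to genes with marked differences or to core targets: Abcc4 and Gclm, both lowest in the osteogenic culture, Txnrd1 and Srxn1 of the thioredoxin branch, and Osgin1, whose window held no match. Each is written 5′ to 3′ along the gene's strand, and capitals mark the match, read as the motif or as its reverse complement.
Abcc4, chr14:118706170-118706469, minus strand: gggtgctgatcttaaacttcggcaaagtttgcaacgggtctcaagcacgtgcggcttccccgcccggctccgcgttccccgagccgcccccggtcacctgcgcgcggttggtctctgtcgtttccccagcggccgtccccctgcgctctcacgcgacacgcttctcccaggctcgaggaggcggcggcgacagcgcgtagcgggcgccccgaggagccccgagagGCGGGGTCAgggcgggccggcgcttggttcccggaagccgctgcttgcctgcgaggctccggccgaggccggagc
Abcc4, second window, chr14:118676882-118677181, minus strand: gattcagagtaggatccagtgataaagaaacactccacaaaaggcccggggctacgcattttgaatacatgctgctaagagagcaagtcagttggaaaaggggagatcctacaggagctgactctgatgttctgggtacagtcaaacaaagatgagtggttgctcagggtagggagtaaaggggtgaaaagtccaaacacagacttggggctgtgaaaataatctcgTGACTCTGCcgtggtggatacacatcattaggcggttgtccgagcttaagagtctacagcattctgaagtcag
Gclm, chr3:122245307-122245606, plus strand: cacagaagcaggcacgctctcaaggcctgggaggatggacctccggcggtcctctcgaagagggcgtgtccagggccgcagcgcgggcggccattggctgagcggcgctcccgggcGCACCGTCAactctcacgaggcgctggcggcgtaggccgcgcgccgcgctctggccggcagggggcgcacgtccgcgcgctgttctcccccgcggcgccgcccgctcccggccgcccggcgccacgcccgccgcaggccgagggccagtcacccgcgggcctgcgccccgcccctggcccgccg
Txnrd1, chr10:82858956-82859255, plus strand: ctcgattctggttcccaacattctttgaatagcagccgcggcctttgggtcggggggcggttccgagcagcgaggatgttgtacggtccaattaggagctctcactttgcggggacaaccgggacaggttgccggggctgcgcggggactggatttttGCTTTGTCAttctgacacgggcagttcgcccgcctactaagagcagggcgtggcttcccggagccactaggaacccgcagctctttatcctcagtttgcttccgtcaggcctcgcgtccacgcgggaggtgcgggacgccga
Srxn1, chr2:152105274-152105573, plus strand: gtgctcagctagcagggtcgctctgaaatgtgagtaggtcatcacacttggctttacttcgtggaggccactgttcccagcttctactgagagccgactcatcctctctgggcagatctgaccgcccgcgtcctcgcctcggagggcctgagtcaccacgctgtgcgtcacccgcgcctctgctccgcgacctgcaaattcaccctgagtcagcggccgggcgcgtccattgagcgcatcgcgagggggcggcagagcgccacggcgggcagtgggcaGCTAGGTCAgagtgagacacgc
Osgin1, chr8:119436897-119437196, plus strand: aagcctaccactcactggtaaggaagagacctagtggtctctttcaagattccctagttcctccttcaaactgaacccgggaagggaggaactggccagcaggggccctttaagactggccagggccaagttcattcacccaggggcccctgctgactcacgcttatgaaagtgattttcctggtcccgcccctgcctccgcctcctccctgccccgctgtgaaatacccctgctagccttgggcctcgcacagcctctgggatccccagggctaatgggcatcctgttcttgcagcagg
In the first Abcc4 window the match began 25 bases before the annotated start, and in the second 23 bases before it. The match of Gclm began 134 bases before the start and that of Txnrd1 92 bases before, while the match of Srxn1 lay 28 bases after it.

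Values above the floor numbered 22437 in the DMSO culture, 22539 in the osteogenic culture and 22424 in the normal culture. The hybridisation spikes, which should be equal, differed by a median of 0.10 between the osteogenic and normal arrays and by -0.03 between the DMSO and osteogenic arrays. Equal values to the last decimal were common, at 37.4% of all probe sets on all 3 arrays and 68.9% on at least 2, dim ones included. Among the 35 measured genes 1 was equal on all 3 arrays and 6 on at least 2. Of 8 osteoblast markers 7 were above the floor on all arrays, with a mean over the 8 of 9.32 in the DMSO culture, 8.93 in the osteogenic culture and 7.78 in the normal culture. The part of this shift in the values below was not tested. Of the macrophage and osteoclast markers 5 of 12 were above the floor on all arrays, among them Ctsk, Lyz2 and Csf1r, with a mean over the 12 of 3.60 in the DMSO culture, 3.61 in the osteogenic culture and 3.68 in the normal culture, while Ptprc and Itgam were below it on every array. The floor was passed on all arrays by 1 of 8 endothelial markers (Flt1, with Pecam1 and Cdh5 below), 1 of 6 adipocyte markers (Retn, with Adipoq below) and 3 of 8 skeletal muscle markers. Of 6 epithelial markers 3 passed it, with a mean over the 6 of 3.24 in the DMSO culture, 3.74 in the osteogenic culture and 3.56 in the normal culture. Of that list Cdh1 differed with DMSO by -1.32, and Krt14, below the floor with DMSO and set to it, by -1.56. The part of these lists in the values below was not tested either. The single repeat measurement was a further probe set of a gene. Over 5183 genes the differences of 2 probe sets of a gene had a gap with an SD of 0.19 in the osteogenic comparison. In the DMSO comparison the SD was 0.15. Divided by the square root of 2, these give 0.13 and 0.11 per probe set, the scatter between probe sets used below. That scatter leaves out the spread between cultures. Levels of different probe sets are not on a common scale, so only differences are compared between genes.

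Osteogenic medium changed none of the 35 measured genes 2-fold, although 0.657% of the 11417 genes compared crossed that line, 0.473% upward and 0.184% downward. At 1.5-fold the count was 2 of 35, Sod3 and Abcc4, both lower, against 3.36% of all genes, of which 1.61% were lower and 1.75% higher. The branches of the system differed in direction. Hmox1, Nqo1 and Osgin1, most glutathione transferases, both efflux pumps and all 3 methionine sulfoxide reductases were lower than in normal medium. The representing probe sets of the 4 thioredoxin and 3 pentose phosphate genes were instead above 0, by 0.03 (Txn1) to 0.25 (Txnrd1). These sizes include some below the spike difference of 0.10, and several further probe sets of these genes were equal. Some of the lower genes also differed by about the scatter between probe sets of 0.13 or less, such as Msrb2 (-0.14), Msrb3 (-0.13) and Gstm5 (-0.06). In all, 13 genes were above 0, 21 below and 1 equal, with a median of -0.05. Over the 11257 genes measured on both arrays 4064 were above 0, 4351 below and 2842 equal, with a median of 0.00. In bulk RNA, fewer cells that express a gene and less RNA per cell cannot be told apart.

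Adding DMSO to osteogenic medium left all 35 genes within 1.5-fold. Over the whole array 0.604% of 11423 genes differed 2-fold, 0.552% downward and 0.0525% upward. At 1.5-fold the share was 2.47%, with 2.12% lower and 0.35% higher. The largest differences were those of Abcc4 (0.49) and Gclm (0.40) upward, and of Gsta4 (-0.44) and Gstt1 (-0.44) downward. The genes divided into 14 above 0, 16 below and 5 equal, with a median of 0.00. Over all 11261 genes the median was also 0.00, with 4559 above 0, 3368 below and 3334 equal.

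With both additions together, in the DMSO culture against the normal culture, Sod3 fell 2.24-fold and was the 1 gene of 35 past 2-fold, where 1.94% of 11422 genes were, 1.34% lower and 0.604% higher. At 1.5-fold 4 of 35 were lower, namely Sod3, Gsta4, Osgin1 and Gstt1, and none was higher, beside 4.19% of all genes lower and 2.59% higher, 6.79% in all. This comparison is the sum of the other two and shares an array with each, so it is no separate evidence. In size, the median difference regardless of sign was 0.15 for the 35 genes in osteogenic against normal medium, beside 0.07 over all genes, and 0.12 beside 0.06 with DMSO. All genes include many more with exactly equal values, 2.86% of the list against 25.2% of all genes in the osteogenic comparison, and 14.3% against 29.6% in the DMSO comparison.

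**Figure D1:**
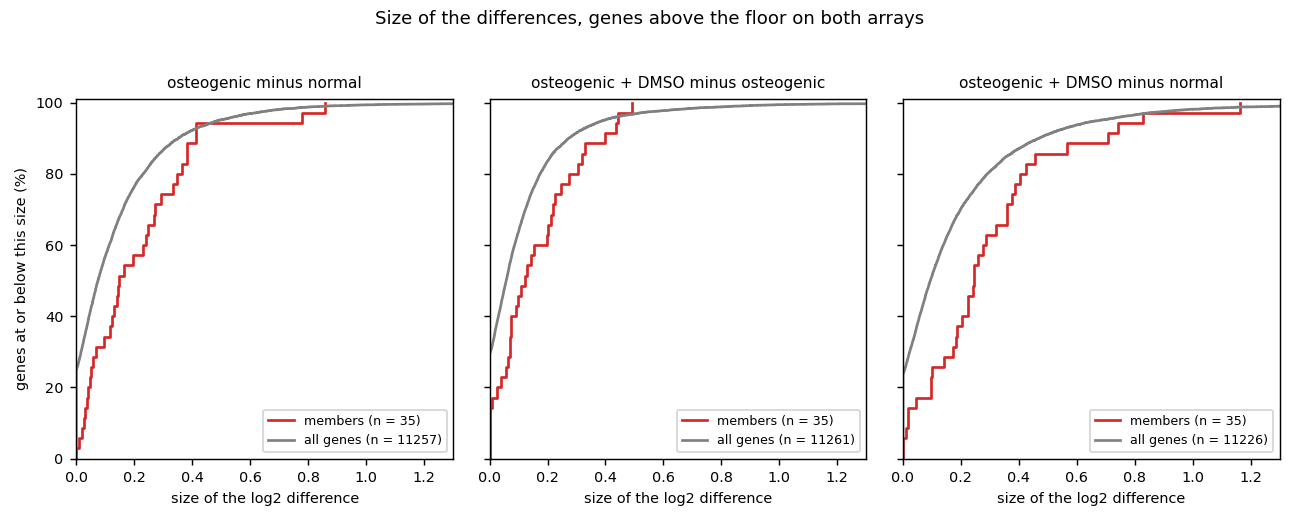
Cumulative share of genes (%) against the size of the log2 difference, regardless of sign, for the 35 measured antioxidant genes (red) and all measured genes (grey) in the 3 comparisons. The red curves lie to the right at small sizes, with median sizes of 0.15 against 0.07 for osteogenic minus normal medium and 0.12 against 0.06 for DMSO. The curves meet at large sizes.

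The regulators themselves hardly differed. Nfe2l2 read 8.89 in the DMSO culture, 8.95 in the osteogenic culture and 8.99 in the normal culture. Its differences of -0.06 with DMSO and -0.04 with osteogenic medium were below the scatter between probe sets. Keap1 read 7.18 in the DMSO and osteogenic cultures alike, against 7.14 in the normal culture. A further probe set of Keap1 differed by 0.16 with DMSO and by -0.09 with osteogenic medium, where the representing probe set gave 0.00 and 0.05, so no direction was shared.

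Hmox1, Nqo1 and Osgin1, grouped here as stress-induced, were lower in osteogenic medium by similar amounts. They are not the only induced NRF2 targets of the list. Txnrd1 (0.25), Gclc (0.24) and Srxn1 (0.15) were higher there and Gclm (-0.20) was lower. Hmox1, the heme oxygenase that opens the heme ring, read 6.66 in the osteogenic culture against 7.04 in the normal culture, a difference of -0.38. Nqo1, a quinone reductase and one of the most used readouts of NRF2, read 6.74 in the osteogenic culture against 7.09 in the normal culture, a difference of -0.35. Osgin1, named as an oxidative stress induced growth inhibitor, read 5.96 in the osteogenic culture against 6.37 in the normal culture, a difference of -0.41. With DMSO these genes parted. Osgin1 read 5.63, a difference of -0.33, and was 1.67-fold lower than in normal medium. Nqo1 read 6.63, a difference of -0.11 that equals the scatter between probe sets. Hmox1 read 6.81, a difference of 0.15, and so lay between the osteogenic and normal cultures. In osteogenic medium 8.52% of measured genes differed by at least as much as Hmox1, 10.2% as Nqo1 and 7.28% as Osgin1. None of these 3 genes had a further probe set above the floor.

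Glutathione synthesis showed no common direction. Its rate is set by glutamate-cysteine ligase, made of the catalytic subunit Gclc and the modifier subunit Gclm, and the last step is made by the synthetase Gss. Gclc read 7.60 in the DMSO culture and 7.66 in the osteogenic culture, against 7.42 in the normal culture. The osteogenic value was thus higher by 0.24 and hardly altered by DMSO (-0.06). For Gclc a further probe set gave 0.13 for osteogenic medium and 0.05 for DMSO. Gclm read 7.79 in the DMSO culture, 7.39 in the osteogenic culture and 7.59 in the normal culture. That is a difference of -0.20 for osteogenic medium and 0.40 for DMSO, so the DMSO culture was the highest. A further probe set of Gclm repeated the lower osteogenic value (-0.31) but read the same with and without DMSO, at 5.72, so the DMSO difference rests on 1 probe set. Gss read 7.23 in the DMSO culture, 7.03 in the osteogenic culture and 6.67 in the normal culture. It was higher by 0.37 in osteogenic medium and by a further 0.20 with DMSO, for a total of 1.48-fold. A further probe set of Gss gave 0.45 for osteogenic medium and 0.09 for DMSO. Gsr, the reductase that restores oxidised glutathione with NADPH, read 7.15 on all 3 arrays. Its further probe set gave 0.07 for osteogenic medium and 0.18 for DMSO.

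The representing probe sets of the thioredoxin branch were all a little higher, in osteogenic medium and again with DMSO. Thioredoxin, encoded by Txn1, reduces protein disulfides, is restored by the reductase Txnrd1, and feeds the peroxiredoxins that destroy peroxide. Txnrd1 read 9.24 in the DMSO culture, 9.17 in the osteogenic culture and 8.92 in the normal culture. The difference was 0.25 for osteogenic medium and 0.07 for DMSO. Srxn1, which repairs overoxidised peroxiredoxin, read 6.79 in the DMSO culture, 6.70 in the osteogenic culture and 6.55 in the normal culture. Prdx2, a cytosolic peroxiredoxin, read 10.67 in the DMSO culture, 10.58 in the osteogenic culture and 10.43 in the normal culture. Their differences, 0.15 each for osteogenic medium and 0.10 and 0.09 for DMSO, were near or below the scatter between probe sets. Txn1 was higher by 0.03 in osteogenic medium and by 0.14 with DMSO. A further probe set each of Txn1, Txnrd1, Srxn1 and Prdx2 held equal values on all 3 arrays. Of the others, a probe set of Txnrd1 gave 0.17 and 0.10, and those of Srxn1 gave 0.12 and 0.18 for osteogenic medium and 0.00 and 0.01 for DMSO.

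Glutathione transferases couple glutathione to electrophiles, and the most negative DMSO differences of the list were theirs. Gsta4, which clears the lipid peroxidation product hydroxynonenal, read 5.18 in the DMSO culture, 5.62 in the osteogenic culture and 6.01 in the normal culture. It differed by -0.38 in osteogenic medium and by a further -0.44 with DMSO, and was 1.77-fold lower in total. Gstt1, of the theta class, read 6.15 in the DMSO culture, 6.59 in the osteogenic culture and 6.86 in the normal culture. Its differences were -0.27 and -0.44, with a total of 1.63-fold lower. With DMSO 3.87% of measured genes differed by at least as much as Gsta4, and 3.98% by at least as much as Gstt1. Both were singled out as the most negative of the list, and neither has a further probe set above the floor. Gstm1, of the mu class, read 9.30 in both the DMSO and the osteogenic cultures, against 9.71 in the normal culture. The osteogenic difference of -0.41 was -0.32, -0.13 and -0.05 in its 3 further probe sets, whose DMSO differences were -0.02, 0.00 and 0.00.

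The remaining transferases followed with smaller differences. Gstm2, Gstm5 and Gsto1, the last an omega-class enzyme that also reduces dehydroascorbate, differed in osteogenic medium by -0.12, -0.06 and -0.12, and with DMSO by -0.12, -0.22 and -0.25. For Gsto1 a further probe set gave -0.15 and -0.24, close to the representing one. Mu-class genes are close relatives of each other, so their probe sets may share signal. Mgst3, a membrane-bound transferase, differed by at most 0.01. Ephx1, the microsomal epoxide hydrolase, was higher in osteogenic medium, at 9.85 in the DMSO culture and 9.92 in the osteogenic culture against 9.63 in the normal culture. Of the 8 measured genes, the transferases and Ephx1, 6 were lower in osteogenic medium and 6 with DMSO. Some of these differences were below the scatter between probe sets. Over all genes, 4351 of 11257 were lower in osteogenic medium and 3368 of 11261 with DMSO.

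**Figure D2:**
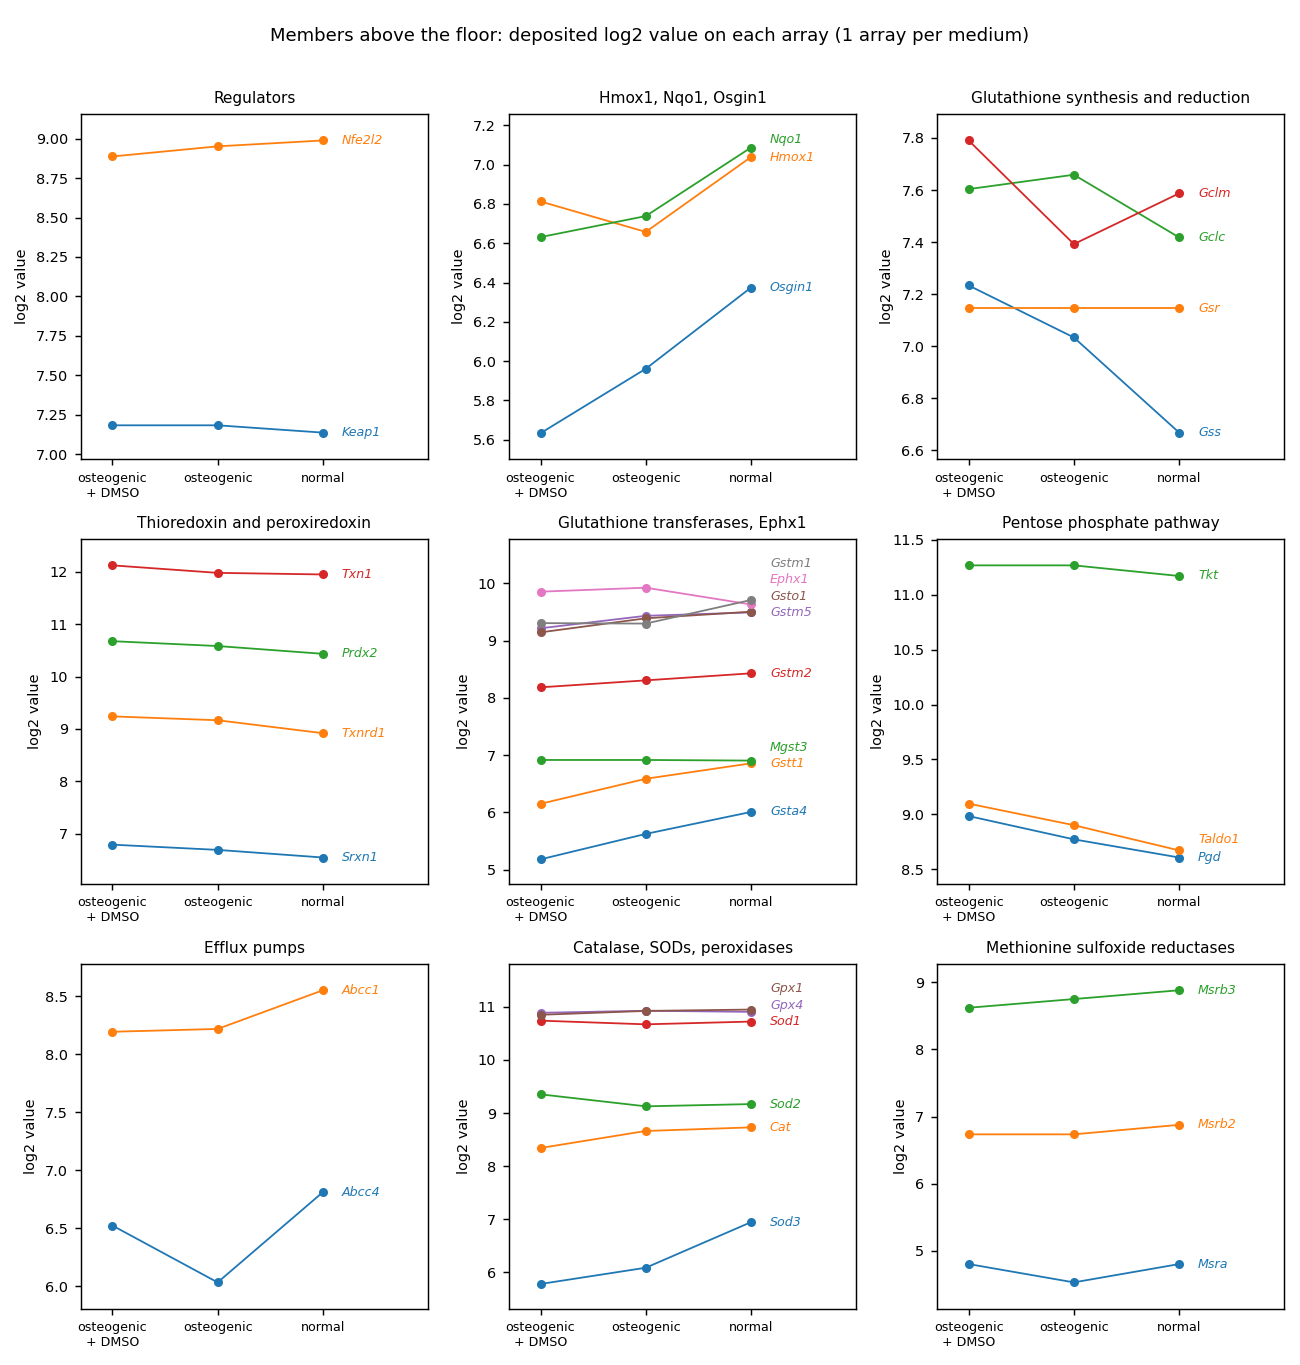
Deposited log2 value of each measured antioxidant gene on the array of the DMSO, osteogenic and normal cultures (left to right), 1 array per culture, in panels by role with a separate vertical axis each. Osgin1, Gsta4, Gstt1 and Sod3 were lowest with DMSO, Gss, Pgd and Taldo1 were highest there, and Gclm, Abcc4 and Msra were lowest in the osteogenic culture.

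The pentose phosphate pathway has an oxidative arm that makes NADPH for glutathione and thioredoxin reductases. Of its 3 measured genes Pgd and Taldo1 differed by more than the spikes in osteogenic medium, and Tkt did not. Pgd, the phosphogluconate dehydrogenase of that arm, read 8.98 in the DMSO culture, 8.77 in the osteogenic culture and 8.61 in the normal culture. The differences of 0.17 and 0.21 had the same sign in its 3 further probe sets, which gave 0.10 to 0.20 for osteogenic medium and 0.07 to 0.25 for DMSO. Taldo1, the transaldolase of the non-oxidative arm, read 9.10 in the DMSO culture, 8.90 in the osteogenic culture and 8.67 in the normal culture. It was higher by 0.23 and by a further 0.20. Tkt, the transketolase, read 11.27 in the DMSO and osteogenic cultures, against 11.17 in the normal culture. Its difference of 0.10 is the size of that of the spikes, and 2 further probe sets gave 0.02 and -0.07, with 0.01 and 0.07 for DMSO.

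The efflux pumps export glutathione conjugates and organic anions, and both were lower in osteogenic medium. Abcc4, which also carries cyclic nucleotides and prostaglandins, read 6.52 in the DMSO culture, 6.03 in the osteogenic culture and 6.81 in the normal culture. It was 1.71-fold lower in osteogenic medium, a size that 1.31% of measured genes reached, and higher by 0.49 with DMSO, which 3.25% reached. Both differences use the osteogenic array, once as the upper and once as the lower term, and Abcc4 had no further probe set above the floor. An odd value on that array would enter both steps of any gene. This limit also bears on Gclm, Msra and, outside the list, Txnip and Slc2a3, whose steps had opposite signs. Abcc1 read 8.19 in the DMSO culture and 8.22 in the osteogenic culture, against 8.55 in the normal culture. Its difference of -0.33 was -0.27 in a further probe set, and DMSO added -0.02, or -0.11 in that probe set.

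Superoxide dismutases turn superoxide into peroxide in different places, Sod1 in the cytosol, Sod2 in mitochondria and Sod3 outside the cell. Sod3 gave the largest difference of the list against normal medium. It read 5.78 in the DMSO culture, 6.09 in the osteogenic culture and 6.94 in the normal culture. The osteogenic culture thus differed by -0.86 (1.81-fold lower), a size that 0.968% of measured genes reached, and the DMSO culture by a further -0.31. Its further probe set gave -0.74 and -0.23, so both steps were seen at each probe set. Sod2 read 9.35 in the DMSO culture, 9.13 in the osteogenic culture and 9.17 in the normal culture. The DMSO difference of 0.23 was 0.24, 0.02 and 0.00 in its 3 further probe sets. For osteogenic medium, where it gave -0.04, these gave -0.15, -0.02 and 0.00. Sod1 differed by -0.05 with osteogenic medium and by 0.07 with DMSO, and its further probe sets above the floor gave -0.13 and 0.00, then 0.10 and 0.00.

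Peroxide is removed by catalase in peroxisomes and by glutathione peroxidases, of which Gpx4 acts on lipid peroxides in membranes. Cat read 8.34 in the DMSO culture, 8.66 in the osteogenic culture and 8.73 in the normal culture. The DMSO difference of -0.32 was -0.16 in a further probe set, and osteogenic medium alone gave -0.07. Gpx1 and Gpx4 differed by no more than 0.07 in either comparison. With DMSO Gpx4 gave -0.04, and 0.00 in its further probe set. Gpx3, a secreted peroxidase, was below the floor on every array.

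Methionine sulfoxide reductases restore oxidised methionine in proteins, and DMSO belongs to the same chemical group, the sulfoxides. All 3 genes were lower in osteogenic medium, but Msrb2 (-0.14) and Msrb3 (-0.13) only by about the scatter between probe sets. Msra had 1 probe set. Msra, which acts on the S form, read 4.81 in the DMSO culture, 4.53 in the osteogenic culture and 4.81 in the normal culture. Its values in the DMSO and normal cultures were equal to the last decimal, and the osteogenic value differed by -0.27 from the normal one. Msrb2, a mitochondrial enzyme for the R form, read 6.74 in the DMSO and osteogenic cultures, against 6.88 in the normal culture. Msrb3, known from the endoplasmic reticulum and mitochondria, read 8.62 in the DMSO culture, 8.75 in the osteogenic culture and 8.88 in the normal culture. For Msrb3 a further probe set gave -0.25 for osteogenic medium and 0.06 for DMSO, where the representing one gave -0.13 in each.

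**Figure D3:**
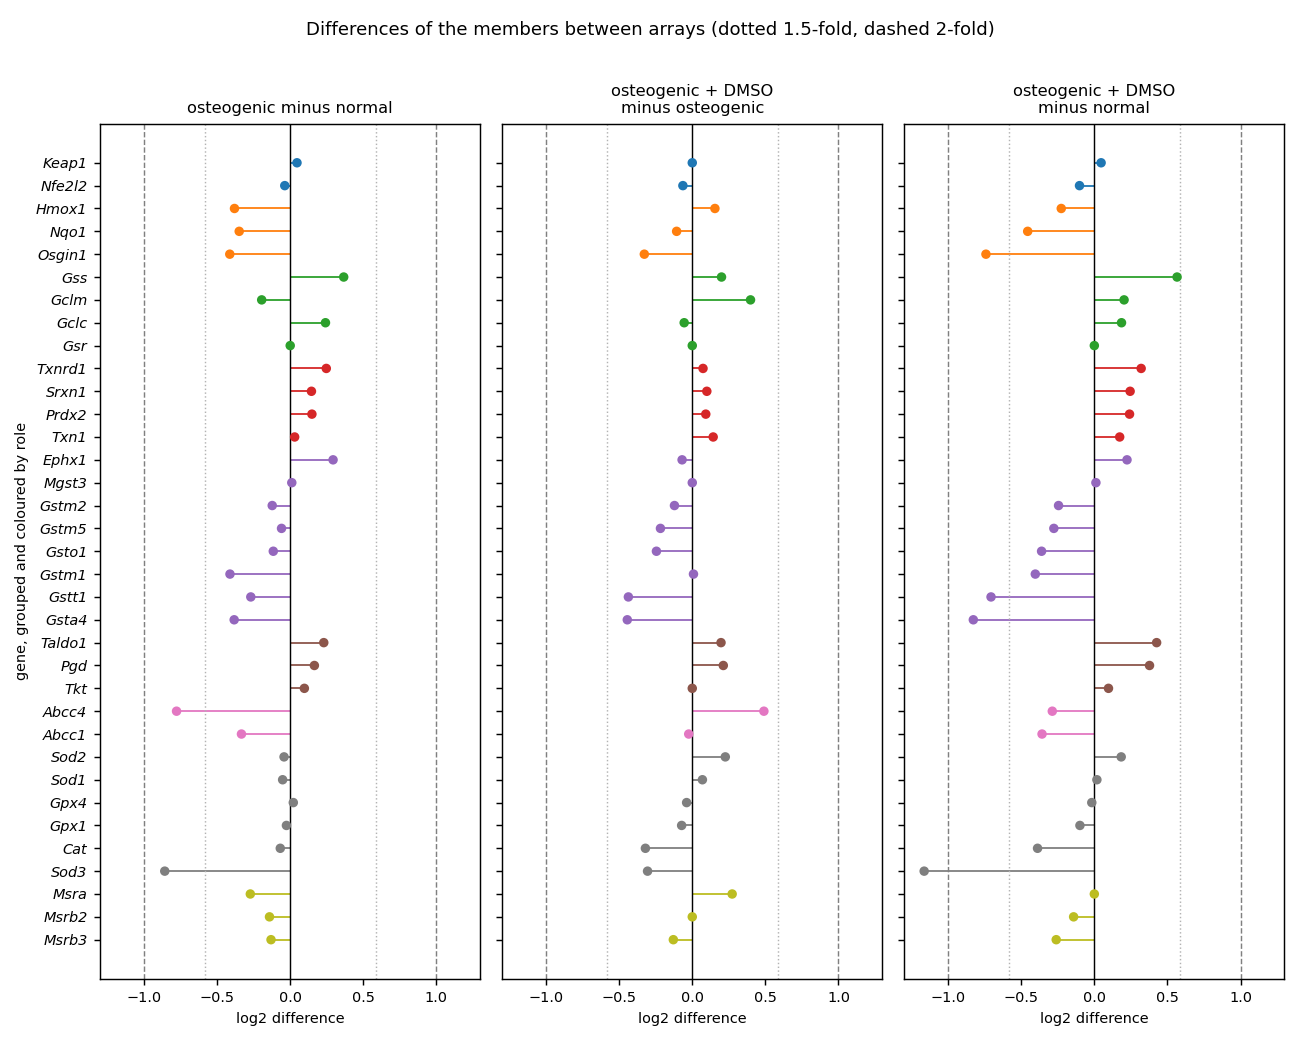
Log2 difference of each of the 35 measured antioxidant genes in the 3 comparisons, coloured by role, with dotted lines at 1.5-fold and dashed lines at 2-fold. Sod3 and Abcc4 lie past the dotted line for osteogenic minus normal medium, no gene does for DMSO minus osteogenic medium, and Sod3 alone passes the dashed line in the sum of the steps.

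Further probe sets above the floor existed for 20 of the 35 genes, 31 in all. The gap to the representing probe set reached at most 0.36 for osteogenic medium, in Gstm1, and 0.40 for DMSO, in Gclm. Of the 31, 6 held equal values in the osteogenic and normal cultures and 10 in the DMSO and osteogenic cultures.

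**Figure D4:**
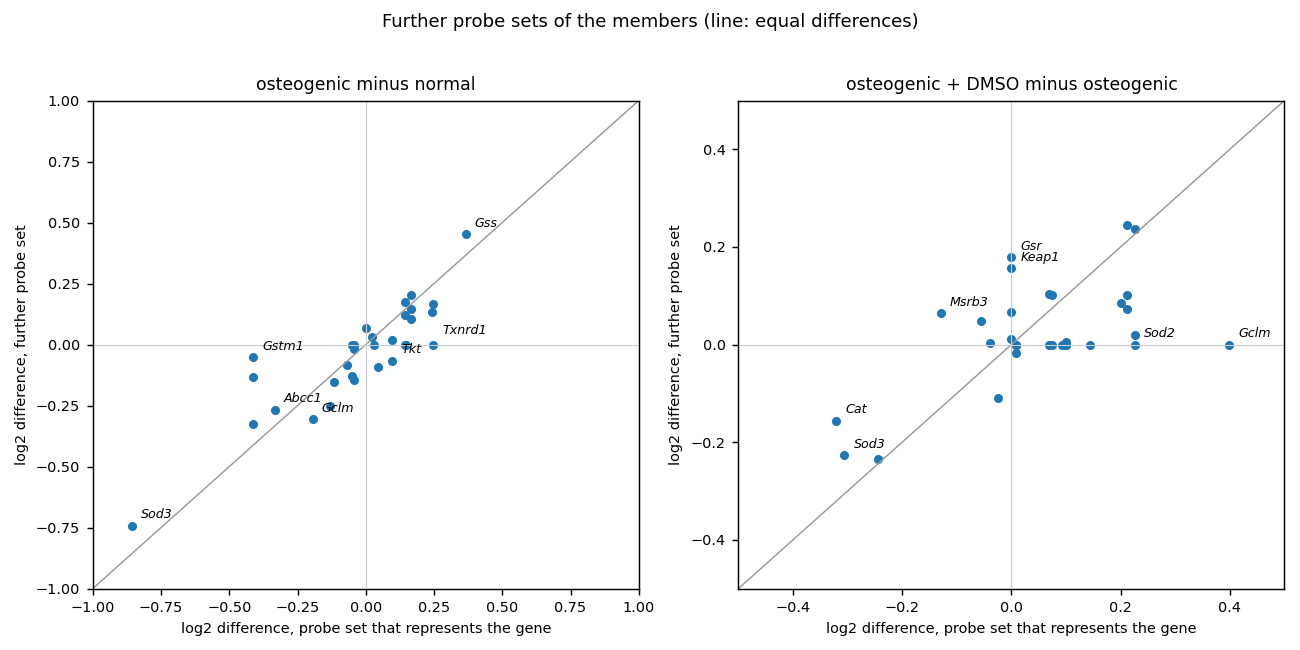
Log2 difference in each of 31 further probe sets (vertical) against that of the probe set that represents the gene (horizontal), for osteogenic minus normal medium (left) and DMSO minus osteogenic medium (right), with the line of equal values. Sod3 lies near the line in both panels, while Gclm lies at 0.40 on the horizontal axis and 0.00 on the vertical axis for DMSO.

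Other genes of the pathway outside the list were taken as 103 names in 7 groups, of which 92 had a probe set and 74 were above the floor on all arrays. In osteogenic against normal medium none of the 75 compared was 2-fold higher or lower, and 7 were 1.5-fold lower and 0 higher, beside 1.61% lower and 1.75% higher over all genes. With DMSO 1 of 74 fell 2-fold, beside 0.552% of all genes, and 2 were 1.5-fold lower and none higher. Over all genes 2.12% were 1.5-fold lower with DMSO, so the count of 2 is near the share of the whole array. Their medians were -0.01 and 0.00.

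The largest osteogenic difference among these genes was that of Cth, in the group for cysteine supply and glutathione turnover. Cth, which makes cysteine, read 5.54 in the DMSO culture, 6.27 in the osteogenic culture and 7.25 in the normal culture, a difference of -0.97 and a further -0.73. Chac1, which breaks glutathione down, read 6.85 in the DMSO culture and 6.94 in the osteogenic culture against 7.76 in the normal culture, a difference of -0.82 in osteogenic medium and -0.08 with DMSO. Slc3a2, the heavy chain of the cystine transporter, differed by -0.55 and -0.19, while its light chain Slc7a11 was below the floor on every array. Of the 9 measured genes of this group 5 were lower in osteogenic medium and 4 equal. The 5 include Chac2, which differed by only -0.02. Over all 11257 genes 4351 were lower and 2842 equal.

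Among oxidant producers, Xdh, a xanthine oxidoreductase that can make superoxide and peroxide, fell 2.24-fold with DMSO. It read 6.58 in the DMSO culture, 7.74 in the osteogenic culture and 7.81 in the normal culture, so the osteogenic and normal arrays were close. Cyba, a subunit of NADPH oxidases, and Maoa differed with DMSO by 0.09 and 0.07. In osteogenic medium Cyba gave -0.08 and Maoa 0.00, but a further probe set of Maoa gave -0.60 and then 0.06 with DMSO. Nox4, Cybb and Ncf1 had no value above the floor in the DMSO and osteogenic cultures.

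Further NRF2 targets went both ways. Aldh3a1, an aldehyde dehydrogenase, read 3.91 in the DMSO culture, 4.41 in the osteogenic culture and 5.23 in the normal culture, close to the floor with DMSO. Its differences were -0.82 and -0.50, and it was 2.49-fold lower in the DMSO culture than in the normal culture. Cbr3, a carbonyl reductase, was higher by 0.42 in osteogenic medium, and Aox1, an aldehyde oxidase, differed by -0.41. With DMSO the biliverdin reductase Blvrb differed by 0.27 and Ugdh by -0.33.

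Of the other thiol and peroxide enzymes, Txnip, which inhibits thioredoxin, read 8.30 in the DMSO culture, 7.99 in the osteogenic culture and 8.85 in the normal culture. Its difference of -0.86 in osteogenic medium and 0.30 with DMSO was -0.94 and 0.32 in its further probe set. The selenoprotein genes Selenop and Selenow differed by -0.64 and -0.63 in osteogenic medium, and a further probe set of Selenow gave -0.62. Their DMSO differences were -0.07 and -0.09, with -0.18 in the further probe set of Selenow. Txnrd3 and Glrx were higher with DMSO by 0.38 and 0.31, and further probe sets gave 0.44 and 0.20 for Txnrd3 and 0.27 for Glrx. In osteogenic medium Txnrd3 gave -0.34, and -0.23 and -0.13 in those probe sets.

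Of 12 partners of NRF2 and KEAP1, 3 were above 0, 5 below and 4 equal in osteogenic medium. Nfe2l1, which encodes a related factor known for control of proteasome genes, differed by -0.67 in osteogenic medium and by 0.10 with DMSO. Brca1, a DNA repair gene whose product is also known to bind NRF2, was higher by 0.42 and 0.15. Rbx1, a subunit of the ligase that KEAP1 serves, was higher by 0.21 and 0.32 near the floor. Maff, a small MAF factor, differed with DMSO by -0.41. It read 3.97 in the DMSO culture and 4.37 in the osteogenic culture, also near the floor. The 2 further probe sets of Brca1 gave 0.22 and 0.00 for osteogenic medium, and 0.20 and 0.00 for DMSO.

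Among 9 measured conjugating enzymes outside the list 5 were equal in osteogenic and normal medium, while Gstz1, Ephx2 and Abcc5 differed by -0.21, -0.19 and -0.10. Mgst2 read 4.35 in the DMSO culture against 4.92 in the osteogenic and normal cultures, a difference of -0.57. Abcc5 and Gstm7 differed with DMSO by 0.10 and 0.07. Ephx2 (3.92 in the osteogenic and 4.11 in the normal culture) and Gstm7 (3.73 in the DMSO and 3.66 in the osteogenic culture) were near the floor. Further probe sets of Abcc5 gave -0.08 to 0.11 for osteogenic medium and -0.14 to 0.08 for DMSO. The ascorbate transporter Slc23a2 differed by -0.24 in osteogenic medium and by a further -0.25 with DMSO. Slc2a3, a glucose transporter that also takes up dehydroascorbate, differed by 0.51 in osteogenic medium and by -0.39 with DMSO. Slc2a1 differed by -0.07 and -0.04, and 2 further probe sets of it were equal on all arrays.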

How the data were processed

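RNA of 3 cultures, each on 1 array, was compared. Per the labels' protocols, total RNA with an RNA integrity number over 9.5 was labelled with a 3' IVT kit. The deposited values are read as log2 from their range of 0.652 to 13.4, while the sources used here do not name the summarisation or normalization. Array medians lie within 0.03 of each other, so a change in total RNA per cell would not be seen. Probe sets were named from GEO's platform annotation, and only those with 1 symbol were used (34945, with 932 of several symbols left out). Per gene the probe set with the highest mean was kept, values were floored at 3.54, and differences of deposited log2 values were counted at 2-fold and 1.5-fold. No p-value was computed.

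The genes and lists were chosen with earlier results of these data known. The genes given with every value were Nfe2l2, Keap1, Hmox1, Nqo1, Gclc, Gclm, Gsr, Txnrd1, Srxn1, any past 1.5-fold, and up to 3 per role with the largest differences. Outside the list up to 3 per group and comparison were named. Further probe sets are given where they differ in sign or more than 2-fold in size, and for some others. A further probe set counts only above the floor. Alternatives were other floors, the mean over probe sets, probe sets with ambiguous IDs left out, quantile and cyclic loess normalization, median centring, equal values left out and 1.5-fold counts. The 2-fold counting was tested on simulated data, with log2 differences of 1.5 planted in genes well above the floor. That does not test smaller differences, the 1.5-fold counts or data with many equal values. Python 3.11.15, numpy 2.4.6, pandas 2.3.3, matplotlib 3.10.9, R 4.3.3 and limma 3.58.1 were used.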

Additional observations from a re-analysis of the deposited data

How the results depend on the processing

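No paired analysis was possible because there was 1 array per culture and no replicate, and the spread between cultures is unknown. Counts of genes past 2-fold were equal under each alternative except that of counting at 1.5-fold, which gave 2 in place of 0 for lower in osteogenic against normal medium and 4 in place of 1 for lower in the DMSO culture against the normal culture. The median of the list stayed between -0.06 and -0.04 for osteogenic minus normal medium, between -0.03 and 0.00 for DMSO minus osteogenic medium, and between -0.10 and 0.004 for DMSO minus normal medium. Of 695 values of the named genes under 9 alternatives, 689 moved by no more than the scatter between probe sets. Many of these could not move. Other floors, no floor and equal values left out alter no named gene, since all lay above each floor. Median centring shifts all genes of an array alike. With the mean over probe sets 5 of 78 values moved, and without ambiguous probe sets 1 of 78. The exceptions were Gclm, Gstm1 and Nfe2l2 with the mean over probe sets, and Cat without ambiguous probe sets. For Gclm the mean gave 0.20 in place of 0.40 for DMSO and -0.05 in place of 0.20 for DMSO against normal medium, where its other probe set gave 0.00 and -0.31. For Gstm1 it gave -0.23 in place of -0.41 for osteogenic medium. The DMSO difference of Cat was -0.16 in place of -0.32. That of Nfe2l2 was 0.05 in place of -0.06, with a dim probe set in the mean. Signal over background was not available, so the floor is a convention and genes near it are the least reliable.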
